A study of Saccharomyces cerevisiae with 4 samples.

Results

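Proteins bound for the cell surface, the vacuole or the secretory pathway itself enter the endoplasmic reticulum (ER), fold there and receive sugars. The 39 genes described here encode that machinery in the budding yeast Saccharomyces cerevisiae. They cover the Sec61 translocon with Sec62 and Sec63 (6 genes), lumenal chaperones and enzymes of oxidative folding (7), the sensor and the transcription factor of the unfolded protein response (2), the oligosaccharyltransferase (9), the assembly of the lipid-linked oligosaccharide (9) and protein O-mannosyltransferases (6). They were chosen by name for their function, although earlier results of these data were known by then. All 39 were found on the array by locus tag, out of 6225 named genes and transcript models, and all 39 were well above background on the 4 arrays.

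The 4 samples came from cultures of a strain labelled BY4741 that carried Msn2A6 under the control of 17β-estradiol. Whether a culture was sampled at both times is not given in the labels. The zinc finger protein Msn2 activates stress genes and is held out of the nucleus by protein kinase A, and Msn2A6 is an allele that escapes this control. Exponential cultures in YPD, a rich glucose medium, were sampled untreated at 0 min (group Msn2A6_0min, 2 arrays) or after 90 min with 6 nM 17β-estradiol (group Msn2A6_90min, 2 arrays), and total RNA was measured on 1-colour Agilent arrays. Both groups carry the construct. The promoter and activator behind it are not given in the sources used here, there was no untreated culture at 90 min, and the comparison therefore covers estradiol, Msn2A6 and further growth together.

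All 4 arrays shared 1 slide and 1 scan. Per array, 6151 to 6191 of 6256 yeast probes gave signal well above background, and saturation affected 0 spots. MSN2 itself rose by 2.47 ± 0.09 on the log2 scale (SE, n = 2 per group, limma adjusted p = 1.34e-06). Its signals were 0.0065 and 0.0061 times the 75th percentile of the array at 0 min, and 0.038 and 0.032 at 90 min. They were well above background on all 4 arrays but low, so the size of this rise rests on weak signals. BY4741 carries deletions at HIS3, LEU2, MET17 and URA3, yet the probes of all 4 genes were well above background on all 4 arrays, with signals of 25.9 to 34.1 times the 75th percentile of the array for URA3 and 6.29 to 12.0 for LEU2. HIS3, LEU2 and MET17 fell by 0.86, 0.91 and 1.08 on the log2 scale and URA3 rose by 0.31, or -0.14 with spike-in scaling. A probe outside a deleted stretch would check nothing, and the probe positions were not used here, so these signals do not settle the genotype.

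Secretory proteins cross the ER membrane through the Sec61 channel, are bound in the lumen by the Hsp70 chaperone Kar2, and gain disulfide bonds through Pdi1 and Ero1. A sugar chain built on dolichol, an isoprenoid lipid of the membrane, is moved as a block onto asparagine by the oligosaccharyltransferase, while the Pmt enzymes attach single mannose residues to serine and threonine. When unfolded proteins pile up, Ire1 splices the HAC1 transcript and Hac1 turns on many of these genes. Yeast grows by laying down a mannoprotein wall, and much of the cargo of this machinery goes there.

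After 90 min, transcripts of the ER machinery were slightly to moderately lower. Of the 39 genes, 30 fell, 0 rose and 9 did not pass the test (limma, two-sided, adjusted p under 0.05 over all probes). No gene rose in any other setting tried either. The median log2 change was -0.30, from -0.75 for ALG5 to 0.07 for CNE1, and no gene reached a 2-fold change. On the whole array, 76.5% of 6144 genes were called, 46.2% as fallen and 30.3% as risen, and the median log2 change was -0.13. The share of the 39 genes that was called, 76.9%, was thus near that of the array, while the calls all lay on one side. Called changes of at least 2-fold were found for 8.92% of all genes upward and 3.87% downward. The p-values rest on the spread between arrays that the series calls biological replicates, and the number of arrays limits the precision. For each gene, limma draws this spread toward that of all genes, with 4.46 prior against 2 residual degrees of freedom. The SE and p-values are therefore moderated and do not give a gene's own spread alone.

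**Figure D1:**
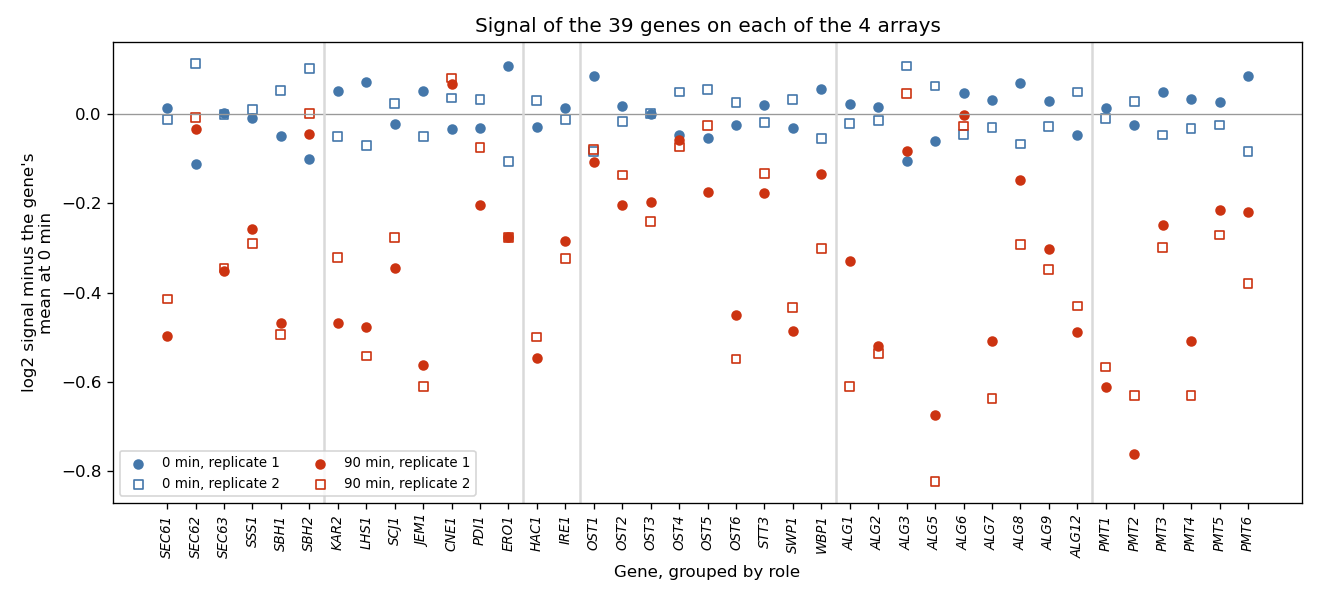
For each of the 39 genes, the log2 signal on every array minus that gene's mean at 0 min is plotted, with blue for 0 min, red for 90 min, filled circles for replicate 1, open squares for replicate 2 and vertical lines between the role groups. Both red symbols lie below both blue ones for 32 genes, above both for CNE1, and overlap them for 6 genes.

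Signals below are multiples of the 75th percentile among yeast spots on the same array, so they show one gene across arrays and not one gene against another. Both 90 min arrays lay below both 0 min arrays for 32 genes, against 52.9% of all genes. CNE1 was the 1 gene with both 90 min arrays above, against 35.6% of all genes. SEC62, SBH2, OST1, OST5, ALG3 and ALG6 had overlapping groups, and so 33 of 39 did not overlap, against 88.4% of all genes. Against each gene's own 0 min mean, 38 of the 39 genes were lower on replicate 1 of 90 min and 36 on replicate 2. The median gap between replicate arrays over the 39 genes was 0.07 on the log2 scale at 0 min and 0.05 at 90 min, and the largest gaps were 0.23 and 0.28. The median over the 39 genes had an SD of 0.06 between replicate arrays.

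How far down the genes lie depends on the scale. Left unscaled, the arrays gave a median over all genes of -0.32, and scaled on spike-in RNA one of -0.58, where the share of calls that rose went from 39.6% to 26.7% and 15.0%. The median of the 39 genes was -0.50 and -0.76 in these settings, and 35 and 38 genes fell, against 57.5% and 62.7% of all genes. With scaling on the array median the count was 26, against 42.5% of all genes. Under spike-in scaling ALG5, PMT2, PMT1, JEM1, ALG7 and PMT4 fell more than 2-fold, with log2 changes of -1.20 to -1.02. Relative to the median gene, the median of the 39 genes was -0.18 in these 4 settings, and 31 of 39 lay below the median gene. These settings differ only by a constant per array, which moves every change alike, so both values had to be the same in all 4. With quantile normalization, normexp background correction and the deposited value table, the relative median was -0.18, -0.20 and -0.20. The genes below the median gene then numbered 30, 32 and 31.

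**Figure D2:**
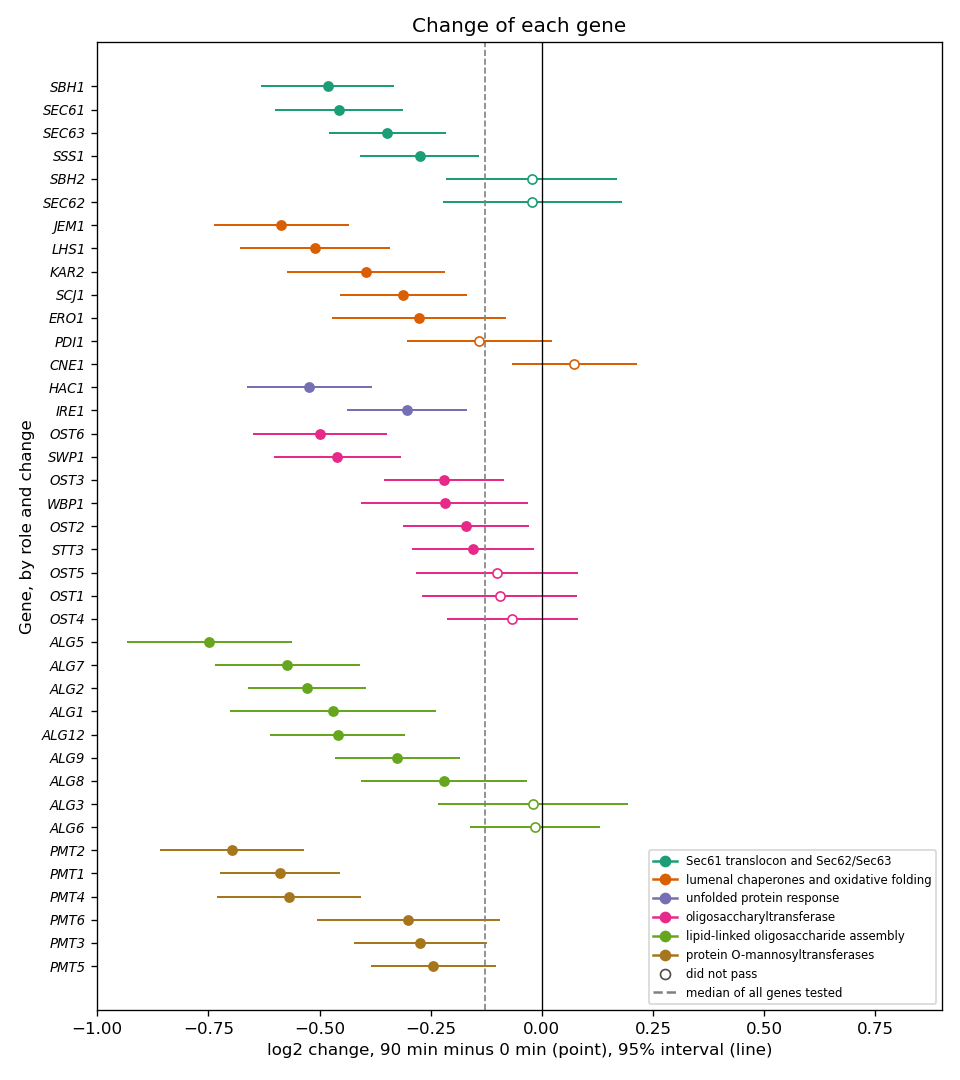
Points give the log2 change from 0 min to 90 min of each gene, lines its 95% interval, colours the role group, and open points the 9 genes that did not pass; the dashed line is the median of all genes tested, -0.13. Changes run from -0.75 for ALG5 to 0.07 for CNE1, and every O-mannosyltransferase point lies left of the dashed line. The intervals of PMT3, PMT5 and PMT6 include it.

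In the translocon, 4 of 6 genes fell, with a median log2 change of -0.31. Over all genes, 46.2% fell and the median was -0.13. SEC61, which encodes the channel itself, gave relative signals of 4.59 and 4.51 at 0 min and 3.22 and 3.41 at 90 min. SBH1, for the beta subunit of the channel, gave 3.20 and 3.44 and then 2.40 and 2.36. SEC63, for the J-domain protein that couples Kar2 to the channel, gave 1.91 and 1.90 and then 1.49 and 1.50. For all 3 genes the groups were well apart and the replicates close. SEC61 fell by 0.46 ± 0.06 (SE, adjusted p = 0.00047), SBH1 by 0.48 ± 0.06 (adjusted p = 0.00043) and SEC63 by 0.35 ± 0.05 (adjusted p = 0.00108). SSS1, the small gamma subunit, fell by 0.27 ± 0.05.

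SEC62 and SBH2 did not pass. SEC62, for a membrane protein of post-translational import, gave 3.00 and 3.51 at 0 min and 3.17 and 3.23 at 90 min, so both later values lay between the earlier ones. Its log2 change was -0.02, with a 95% interval from -0.22 to 0.18. SBH2 encodes the beta subunit of the second channel, built around Ssh1, and is the paralogue of SBH1. Its signals were 7.92 and 9.11 at 0 min and 8.23 and 8.50 at 90 min, a log2 change of -0.02 with an interval from -0.21 to 0.17. The change of SBH1 was lower than that of SBH2 by 0.46 on the log2 scale (difference -0.46), against gaps of 0.10 and 0.07 between replicate arrays in the same ratio. SSH1, the channel gene that goes with SBH2, had a log2 change of 0.02 ± 0.07 and did not pass either. With 2 arrays against 2, an exact permutation test (two-sided) of such a difference between related genes cannot go below p = 0.333, which it gave for each of the 6 pairs compared, before and after adjustment over them, so these differences are descriptions.

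Among the chaperone and folding genes, 5 of 7 fell, against 46.2% of all genes, and the median was -0.31, against -0.13. These were the 4 genes of the Hsp70 system, namely the Hsp70 gene KAR2, the nucleotide exchange factor gene LHS1 and the J-domain protein genes SCJ1 and JEM1, and ERO1. KAR2 gave 10.6 and 9.84 at 0 min and 7.38 and 8.16 at 90 min. LHS1 gave 2.05 and 1.86 and then 1.40 and 1.34. JEM1, which also serves nuclear fusion in mating, gave 0.115 and 0.107 and then 0.0750 and 0.0726. None of these groups overlapped, as was so for 88.4% of all genes. JEM1 fell by 0.59 ± 0.06 (1.50-fold lower, adjusted p = 0.000185), LHS1 by 0.51 ± 0.07 (adjusted p = 0.00059), KAR2 by 0.40 ± 0.07 (adjusted p = 0.00251) and SCJ1 by 0.31 ± 0.06 (adjusted p = 0.00263). SIL1, the second exchange factor gene of Kar2 and not among the 39, fell by 0.57 ± 0.06.

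The oxidative folding genes gave smaller values. PDI1, for protein disulfide isomerase, gave 10.5 and 10.9 at 0 min and 9.28 and 10.2 at 90 min. Both later arrays were lower, but the gap was narrow and the log2 change of -0.14 did not pass (95% interval -0.30 to 0.02, adjusted p = 0.095). Relative to the median gene, the change of PDI1 was -0.01, and it ran from -0.20 to -0.08 when 1 array was left out. PDI1 passed in the deposited value table (-0.19, limma adjusted p = 0.024) and with a replicate block (adjusted p = 0.046). It also passed with no or spike-in scaling, and so did SBH2, OST1, OST4 and OST5. ERO1, for the oxidase that recharges Pdi1, gave 1.10 and 0.949 and then 0.845 and 0.844, and fell by 0.28 ± 0.08 (adjusted p = 0.018). Without replicate 1 of 0 min the change was -0.17 and no longer passed (adjusted p = 0.091). Without replicate 1 or 2 of 90 min it stayed at -0.28 with a wider error, and narrowly missed the threshold (adjusted p = 0.051 and 0.053). Leaving out an array leaves 1 sample in its group, which is then assumed to vary like the other group, as in all such values given here. CNE1, for the yeast calnexin, gave 0.186 and 0.195 and then 0.199 and 0.201. It had the highest change of the 39 genes, 0.07 with an interval from -0.06 to 0.21, and did not pass.

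Both genes of the unfolded protein response fell, against 46.2% of all genes. HAC1 gave 2.96 and 3.08 at 0 min and 2.07 and 2.13 at 90 min, and fell by 0.52 ± 0.06 (1.44-fold lower, adjusted p = 0.00022). IRE1, for the kinase and ribonuclease that senses unfolded proteins, gave 0.122 and 0.120 and then 0.0992 and 0.0965, and fell by 0.30 ± 0.06 (adjusted p = 0.0023). The groups did not overlap for either gene, as for 88.4% of all genes. The array reads total HAC1 RNA, so spliced and unspliced forms were not told apart here.

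The oligosaccharyltransferase showed the smallest median of the 6 role groups, -0.17, with 6 of 9 genes fallen. Over all genes the median was -0.13, with 46.2% fallen. Relative to the median gene, OST6 lay at -0.37 and SWP1 at -0.33, but OST3 and WBP1 at -0.09, OST2 at -0.04 and STT3 at -0.03. OST1 and OST5 lay above it at 0.03 and OST4 at 0.06. Its subunits are known to form subcomplexes, Ost1 with Ost5, Stt3 with Ost4 and either Ost3 or Ost6, and Swp1 with Wbp1 and Ost2. SWP1 gave 1.43 and 1.49 at 0 min and 1.04 and 1.08 at 90 min. OST6 gave 0.319 and 0.330 and then 0.237 and 0.222. STT3, for the catalytic subunit, gave 4.74 and 4.62 and then 4.14 and 4.26. The first pair of genes stood well apart between groups and STT3 only narrowly. OST6 fell by 0.50 ± 0.06 (adjusted p = 0.00038), SWP1 by 0.46 ± 0.06 (adjusted p = 0.00043) and STT3 by 0.16 ± 0.06 (adjusted p = 0.040).

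OST3 and OST6 encode the alternative oxidoreductase subunits of this enzyme. OST3 gave 1.59 on both 0 min arrays and 1.39 and 1.34 at 90 min, and fell by 0.22 ± 0.06 (adjusted p = 0.0099). Its change was higher than that of OST6 by 0.28, against gaps of 0.05 and 0.05 between replicates, and by 0.19 in the deposited value table. WBP1 fell by 0.22 ± 0.08 and OST2 by 0.17 ± 0.06. The calls of STT3, OST2 and WBP1 were narrow. That of STT3 was lost without any 1 of the 4 arrays (changes of -0.18 to -0.13), while its change in the deposited value table was -0.26. OST2 missed the threshold without either 0 min array or without replicate 1 of 90 min (-0.19 to -0.14). WBP1 missed it without replicate 1 of 0 min (-0.16) or replicate 2 of 90 min (-0.14), and with quantile normalization (-0.16). All 3 also missed it with scaling on the array median, at -0.11 for STT3, -0.13 for OST2 and -0.17 for WBP1.

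OST1, OST4 and OST5 did not pass. OST1 had a log2 change of -0.09 (interval -0.27 to 0.08), OST4 of -0.07 (-0.21 to 0.08) and OST5 of -0.10 (-0.28 to 0.08). OST1 and OST5, which share a subcomplex, both had overlapping groups, with OST5 at 1.33 and 1.44 at 0 min and 1.23 and 1.36 at 90 min.

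In the assembly of the lipid-linked oligosaccharide, 7 of 9 genes fell, against 46.2% of all genes. The median was -0.46, against -0.13. ALG7 encodes the enzyme of the first step, the target of tunicamycin, and gave 0.804 and 0.771 at 0 min and 0.553 and 0.507 at 90 min. ALG2, for a mannosyltransferase on the cytosolic face, gave 0.375 and 0.368 and then 0.259 and 0.256. ALG5, which makes dolichyl phosphate glucose for the last steps, gave 0.295 and 0.322 and then 0.193 and 0.174. The groups of these genes did not overlap, as for 88.4% of all genes. ALG5 fell by 0.75 ± 0.08 (1.68-fold lower, adjusted p = 0.000154), the lowest change of the 39 genes. ALG7 fell by 0.57 ± 0.07 (adjusted p = 0.000286) and ALG2 by 0.53 ± 0.05 (adjusted p = 0.000163).

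ALG1, for the mannosyltransferase that adds the first mannose, fell by 0.47 ± 0.10. Its 90 min arrays lay apart, at 0.197 and 0.162, against 0.251 and 0.243 at 0 min. On the lumenal face, ALG12 fell by 0.46 ± 0.06 and ALG9 by 0.33 ± 0.06, both mannosyltransferase genes, and the glucosyltransferase gene ALG8 by 0.22 ± 0.08. The ALG8 call was lost without replicate 1 of 0 min (-0.15), without replicate 2 of 90 min (-0.15) or with scaling on the array median (-0.18). ALG3 and ALG6, which encode the first mannosyltransferase and the first glucosyltransferase of the lumenal face, did not pass. ALG6 gave 0.575 and 0.539 at 0 min and 0.556 and 0.546 at 90 min, a log2 change of -0.01 (interval -0.16 to 0.13). ALG3 had 2 probes, with changes of -0.02 for the brighter, used here (interval -0.23 to 0.19), and -0.14 for the other.

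All 6 O-mannosyltransferase genes fell, against 46.2% of all genes, with a median of -0.43, against -0.13. The family has the Pmt1 branch (Pmt1 and Pmt5), the Pmt2 branch (Pmt2, Pmt3 and Pmt6) and Pmt4, and in this species Pmt1 pairs mainly with Pmt2 and Pmt5 with Pmt3, while Pmt4 pairs with itself. PMT2 gave 3.90 and 4.04 at 0 min and 2.34 and 2.56 at 90 min. PMT1 gave 2.62 and 2.58 and then 1.70 and 1.76. PMT4 gave 2.23 and 2.13 and then 1.53 and 1.41. These genes encode the major activities, and their groups lay far apart. PMT2 fell by 0.70 ± 0.07 (1.62-fold lower, adjusted p = 0.000115), PMT1 by 0.59 ± 0.06 (1.50-fold lower, adjusted p = 0.000108) and PMT4 by 0.57 ± 0.07 (1.48-fold lower, adjusted p = 0.000287).

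The other 3 genes of the family had smaller changes. PMT5 gave 0.313 and 0.302 at 0 min and 0.265 and 0.255 at 90 min, and fell by 0.24 ± 0.06 (adjusted p = 0.0075). PMT3 gave 0.395 and 0.370 and then 0.322 and 0.311, and fell by 0.27 ± 0.06 (adjusted p = 0.00604). PMT6 gave 0.516 and 0.458 and then 0.417 and 0.374, and fell by 0.30 ± 0.08 (adjusted p = 0.015). The PMT6 call was lost without replicate 1 of 0 min (-0.21) or replicate 2 of 90 min (-0.22). Within the branches, the change of PMT1 minus that of PMT5 was -0.34 and that of PMT2 minus that of PMT3 was -0.42, against replicate gaps of 0.03 to 0.18 in these ratios. PMT4 minus PMT6 gave -0.27. PMT1 minus PMT2, the main partners, gave 0.11 against gaps of 0.08 and 0.09, and 0.06 without replicate 1 of 90 min or 0.07 without replicate 2 of 0 min. PMT7, a further family member outside the 39, had a change of -0.14 ± 0.08 and did not pass. Members of the family are similar in sequence, and cross-hybridization between their probes was not tested.

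**Figure D3:**
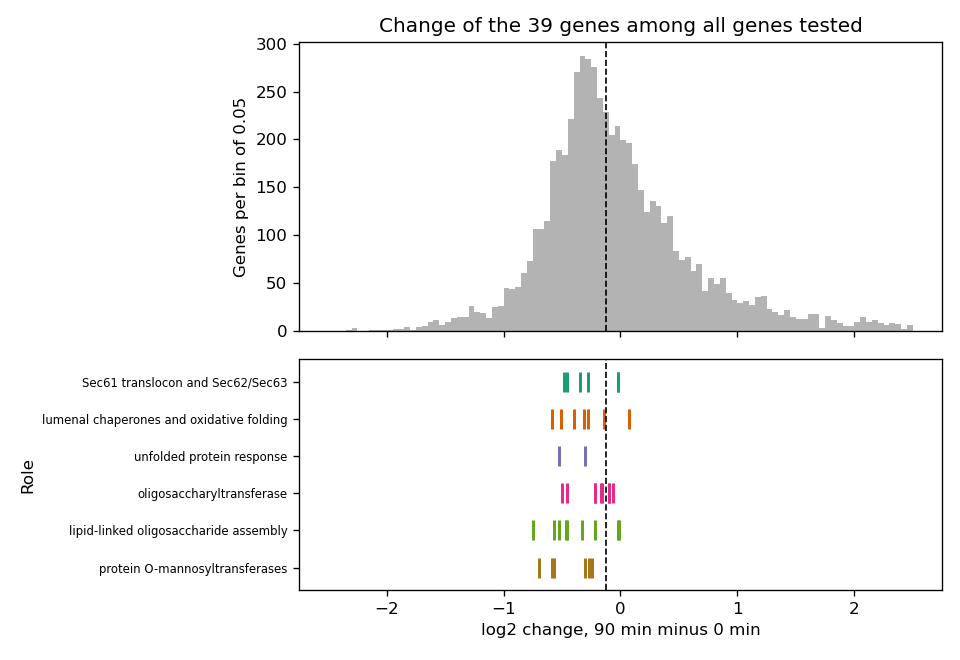
The grey histogram gives the number of genes per bin of log2 change for all 6144 genes tested, cut at changes of 2.5 in both directions (103 genes lie outside), and the ticks give the 39 genes by role. The ticks lie between -0.75 and 0.07, on both sides of the dashed median of all genes at -0.13.

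Other genes of the same pathways were then read from 6 lists of 65 genes, all of them tested. Of these, 36 fell, 10 rose and 19 did not pass, with a median of -0.22, against 46.2% fallen and 30.3% risen over the array. Left unscaled, 45 fell and 4 rose, and with spike-in scaling 52 fell and 1 rose. The rises numbered 6 without replicate 2 of 0 min or without replicate 1 of 90 min. In targeting to the ER, the Ssh1 channel and signal peptidase, 11 of 15 fell and 1 rose. The signal recognition particle gene SRP72 fell by 0.53 ± 0.09, SRP68 by 0.37 ± 0.08 and SEC65 by 0.34 ± 0.06, and SPC2 of signal peptidase fell by 0.31 ± 0.06. SPC1, another signal peptidase gene, rose by 0.27 ± 0.08, and with spike-in scaling its change was -0.19. In folding and glycan trimming, 6 of 12 fell and 2 rose. MPD1, a relative of PDI1, gave 0.270 and 0.264 at 0 min and 0.462 and 0.457 at 90 min, and rose by 0.78 ± 0.05 (adjusted p = 2.62e-05). Under spike-in scaling its change was 0.33, which missed the threshold. SIL1, the glucosidase gene CWH41 (0.46 ± 0.06) and KRE5 (0.39 ± 0.07) fell, and MNS1, the ER mannosidase gene, rose by 0.21 ± 0.07, or -0.24 with spike-in scaling.

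ER-associated degradation, which returns misfolded proteins to the cytosol for destruction, had 3 of 12 genes risen, 2 fallen and a median of 0.03. The share called was 41.7%, against 76.5% of all genes, and with spike-in scaling 8 fell and 0 rose. CDC48, the ATPase that extracts the proteins, gave 11.7 and 11.2 at 0 min and 19.0 and 19.6 at 90 min. It rose by 0.75 ± 0.06 (adjusted p = 3.94e-05), and by a value of 0.30 that did not pass with spike-in scaling. UBX2, which recruits Cdc48, rose by 0.31 ± 0.06 and the ubiquitin ligase gene HRD1 by 0.24 ± 0.07, but with spike-in scaling their changes were -0.15 and -0.21. MNL1 (also HTM1), the mannosidase that marks glycoproteins for this route, gave 1.05 and 1.06 and then 0.583 and 0.639, and fell by 0.79 ± 0.07. DER1 fell by 0.25 ± 0.08.

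Of the 65 other pathway genes, 3 fell at least 2-fold, against 3.87% of all genes. They act in the supply of mannose and in the Golgi. PSA1, which makes GDP-mannose, the donor for both kinds of glycosylation, gave 21.5 and 21.4 at 0 min and 7.81 and 8.27 at 90 min. SEC53, for the phosphomannomutase before it, gave 7.26 and 6.94 and then 3.38 and 3.36. MNN1, for the Golgi enzyme that caps mannan chains, gave 2.79 and 2.59 and then 1.08 and 1.10. PSA1 was 2.67-fold lower (adjusted p = 2.75e-06), MNN1 2.47-fold (adjusted p = 5.11e-06) and SEC53 2.11-fold (adjusted p = 7.63e-06). Along the same route PMI40, the entry into mannose metabolism, fell by 0.65 ± 0.05, and DPM1, which makes dolichyl phosphate mannose, by 0.42 ± 0.06.

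In the list of dolichol and sugar donors, 9 of 14 genes fell and 2 rose, against 46.2% and 30.3% of all genes. For the donor of N-acetylglucosamine, PCM1 fell by 0.80 ± 0.06 and GFA1 by 0.67 ± 0.06, while GNA1 and QRI1 did not pass. CAX4, the phosphatase that recycles dolichyl pyrophosphate, gave 0.209 and 0.206 and then 0.375 and 0.404. It rose by 0.91 ± 0.06 (adjusted p = 2.38e-05) and was the 1 gene of the 65 that rose with spike-in scaling, by 0.45. NUS1, a subunit of the dolichol-making prenyltransferase, rose by 0.51 ± 0.06, or 0.05 with spike-in scaling, where it did not pass.

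Among 8 N-glycan genes outside the 39, 7 fell and 1 rose, against 46.2% and 30.3% of all genes. ALG14 fell by 0.73 ± 0.07 whereas ALG13, its partner in the second step, rose by 0.17 ± 0.06, with a change of -0.28 under spike-in scaling and of -0.03 without scaling. MNN9, for a subunit of Golgi mannan polymerases, fell by 0.47 ± 0.05. Of 4 genes of O-mannan extension, KTR1 fell by 0.46 ± 0.06, KRE2 rose by 0.19 ± 0.06 (-0.27 with spike-in scaling and -0.01 without scaling), and KTR3 and PMT7 did not pass. The rise of KRE2 also missed the threshold with quantile normalization (0.11) and in the deposited value table (0.10).

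**Figure D4:**
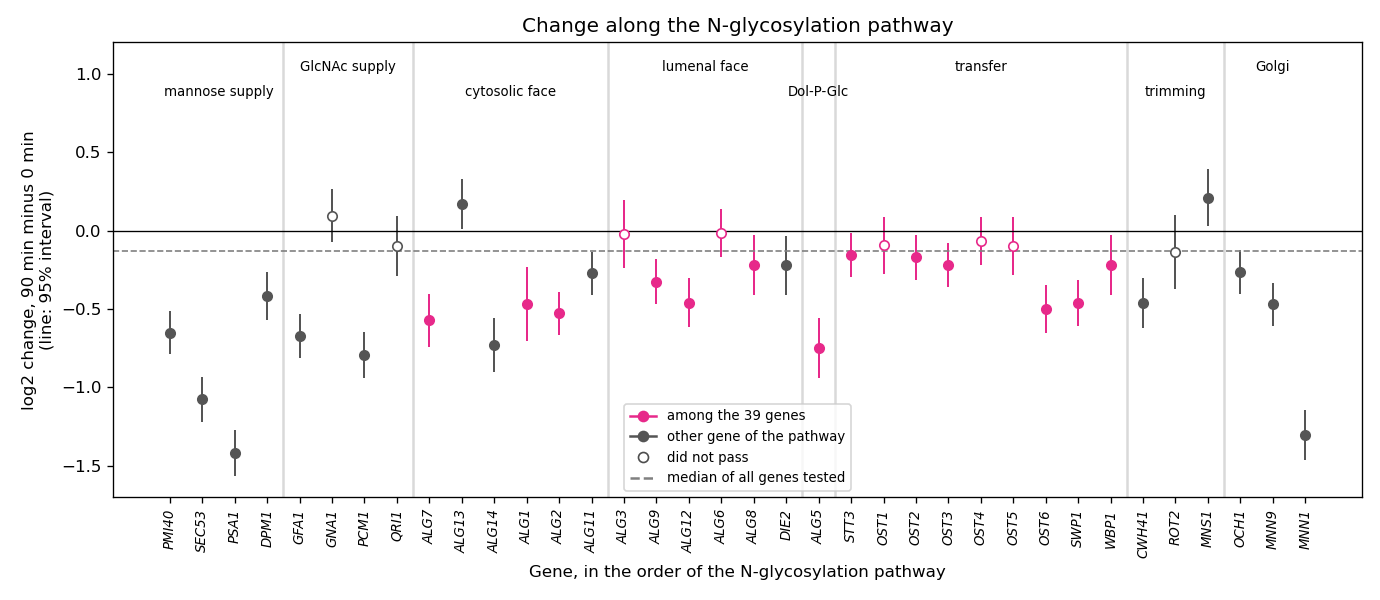
The log2 change of each gene is drawn in the order of the N-glycosylation pathway, from sugar supply to the Golgi, with 95% intervals, pink for genes among the 39, grey for the other genes of the pathway, and open points for those that did not pass. PSA1, MNN1 and SEC53 lie lowest, and ALG13 and MNS1 are the called points above 0. The intervals of ALG3, ALG6, OST1, OST4 and OST5 include 0, as do those of GNA1, QRI1 and ROT2 outside the 39.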

How the data were processed

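Per the file headers, the deposited scanner files hold spot intensity in arbitrary units from Agilent Feature Extraction 10.7.3.1, whose processed intensity is background-subtracted and detrended. The deposited value table holds log2 values of the authors, made with limma per the submitters' processing notes, with version and steps not given in the sources used here. Its column medians were 11.6 to 11.7, it was not centred per gene, and its values correlated at r = 0.9995 to 0.9998 over probes with log2 scanner signal; whether background was subtracted is unknown. It served as an alternative.

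From the log2 processed signal, each array's 75th percentile over yeast spots was subtracted, with no pseudocount. Duplicate spots were averaged without outlier spots (3 to 10 per array). Probes with a spot well above background on both arrays of a group were kept (6175 of 6256). Names came from a RefSeq table by locus tag (5748 probes) or accession (17), and 491 kept the file's name. The brightest probe stood for a gene. The 90 min arrays were tested against the 0 min arrays in limma 3.58.1, under R 4.3.3 (lmFit and eBayes, two-sided), adjusted by Benjamini-Hochberg over probes. Intervals are 95% from the moderated fit.

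The genes, lists, tests and alternatives were chosen with earlier results of these data known. Values on every array are given for the 3 called genes of largest absolute change in each role group and for HAC1, IRE1, KAR2, PDI1, SEC61, STT3 and ALG7, and for others chosen after their values were seen. From each list of other pathway genes, up to 4 called genes of largest absolute change are named, and 1 gene that this takes is not reported here. MSN2 and 4 strain markers were read as a check of the labels, and all 4 markers gave signal despite the deletions of BY4741. The labels do not say what a shared replicate number stands for. Alternatives were 4 other scalings, normexp (offset 50), the deposited table, 2 filters, a replicate block, 2 variance priors, the mean of probes, a threshold of 0.01 and leaving out each array. The planned slide block was not run because there was 1 slide, and planned sequence features were not analysed here. How often a change of a given size would be called, where 76.5% of all genes are called, was not tested.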

Additional observations from a re-analysis of the deposited data

How the results depend on the processing

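The count of the 39 genes that fell was 30 and ranged from 24 (adjusted p under 0.01) to 38 (spike-in scaling), and from 24 to 28 when 1 array was left out; the count that rose was 0 in all 17 alternatives. Their median of -0.30 was -0.50 with no scaling between arrays and -0.76 with spike-in scaling, and between -0.35 and -0.26 in the other alternatives. The median of the other pathway genes, -0.22, was -0.42 and -0.68 in those 2 settings. Their count of rises, 10, was 4 with no scaling, 1 with spike-in scaling, 5 at adjusted p under 0.01 and 6 to 7 when 1 array was left out, and their count of falls, 36, ran from 25 (adjusted p under 0.01) to 52 (spike-in scaling). In these 2 settings a common offset of an array moves every change alike and enters each test as noise; the spike-in signal itself differed between the 0 min arrays, at -0.48 and -0.18 relative to the 75th percentile. No call among the 39 genes changed its direction in any alternative. With a replicate block 31 of the 39 genes fell, PDI1 (adjusted p = 0.046) in addition, and no other call among them changed; of the other pathway genes 39 fell. The differences between replicates of both groups correlated at r = 0.20 over 6144 genes and at r = 0.39 over the 39. The differences between related genes kept their sign in every alternative, which were added after seeing the data and left out scalings that cannot move a ratio within an array. With 2 arrays per group, each array weighs heavily on the narrow calls.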
